A study of Mus musculus with 25 samples.

Results

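Heat shock proteins and their DnaJ partners were described across a panel of recombinant inbred mice. The members were every row of the deposited table whose gene symbol starts with Hspa, Hspb, Hspd, Hspe, Hsph, Hsp90, Dnaja, Dnajb or Dnajc, pseudogenes left out, with a mean of at least 10 scaled counts. There were 67 such genes among the 16220 genes listed, and 16152 genes reached that mean and entered the tests. The prefixes also took in Hspbp1 and Hspbap1, which share the letters but are regulators or partners of heat shock proteins.

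The study sequenced RNA from dorsal root ganglia, the clusters of sensory nerve cell bodies beside the spinal cord, of 25 BXD strains, which are recombinant inbred lines made from crosses of C57BL6/J and DBA2/J mice. Each strain was 1 library from mice 8 weeks old, so no value has an error within a strain. Strain names ended in TyJ for 16 strains and in RwwJ for 9, and this ending was the only labelled difference between groups. The labels name no treatment and do not state sex or how many animals went into a library.

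Heat shock proteins are chaperones: they hold unfolded proteins, help them fold and pass damaged ones on for removal. Hsp70 proteins do this by binding and releasing short greasy stretches of a client in a cycle of ATP hydrolysis, DnaJ proteins (also called Hsp40) bring clients to Hsp70 and start that cycle, and Hsp110 proteins reset it by exchanging the nucleotide. Hsp90 finishes the folding of signalling proteins, Hsp60 (Hspd1) with its lid Hsp10 (Hspe1) forms the folding chamber of mitochondria, and the small heat shock proteins hold clients without ATP. In the cytosol many of these genes are switched on by heat shock factor at heat shock elements, and in the endoplasmic reticulum by the unfolded protein response. Sensory neurons carry proteins along very long axons, and mutations of the small heat shock proteins Hspb1 and Hspb8 cause inherited neuropathies.

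The promoters shown are of some members named below that hold either of 2 kinds of element. Other genes named below, such as Dnaja1, Fkbp4 and Creld2, also hold one and are not shown. Sequences are from RefSeq, build GRCm38.p6, 5′ to 3′ on the strand of the gene. Capitals mark a heat shock element, searched as GAANNTTC or TTCNNGAA, or an endoplasmic reticulum stress element, searched as CCAAT and CCACG with 9 bases between them, each on both strands in the 250 bases before the start of the transcript. Hspe1 is shown at chr1:55088053-55088082 on the plus strand, in the region it shares with Hspd1, which runs the other way. Hsph1 is shown at chr5:149636351-149636380 on the minus strand, Hspb1 at chr5:135887669-135887918 on the plus strand and Hspa1b at chr17:34959239-34959488 on the minus strand. Hspa5 is shown at chr2:34772020-34772049 on the plus strand and Hsp90b1 at chr10:86705510-86705694 on the minus strand.
Hspe1: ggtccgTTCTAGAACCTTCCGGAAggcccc
Hsph1: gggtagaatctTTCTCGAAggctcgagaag
Hspb1: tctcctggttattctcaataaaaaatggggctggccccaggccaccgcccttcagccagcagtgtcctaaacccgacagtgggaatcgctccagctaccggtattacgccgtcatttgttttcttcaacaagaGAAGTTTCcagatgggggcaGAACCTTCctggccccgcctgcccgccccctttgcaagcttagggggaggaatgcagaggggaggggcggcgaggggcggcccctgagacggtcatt
Hspa1b: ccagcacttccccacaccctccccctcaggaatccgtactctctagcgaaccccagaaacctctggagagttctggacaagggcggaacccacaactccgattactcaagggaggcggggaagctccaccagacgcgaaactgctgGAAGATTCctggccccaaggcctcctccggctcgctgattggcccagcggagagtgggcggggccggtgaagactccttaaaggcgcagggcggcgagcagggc
Hspa5: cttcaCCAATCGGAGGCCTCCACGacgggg
Hsp90b1: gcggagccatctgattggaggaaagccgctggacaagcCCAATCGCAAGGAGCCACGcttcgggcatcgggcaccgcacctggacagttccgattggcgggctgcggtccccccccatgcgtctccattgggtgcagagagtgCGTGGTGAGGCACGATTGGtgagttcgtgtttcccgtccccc

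In Hspe1 the capitals hold overlapping copies of the 3-part heat shock element (GAA and TTC in turn, 2 bases apart), and in Hsp90b1 the second capital run is the stress element read on the other strand. Of the 53 members with an entry in the promoter table, 13 (24.5%) held the 2-part heat shock element, against 14.5% of all 27025 genes with an entry. The 3-part element stood in 3 members (5.66%), Hspd1, Hspe1 and Dnajb6, against 0.514% of genes. The stress element stood in 3 members (5.66%), Hspa5, Hsp90b1 and Dnajc3, a DnaJ protein of the endoplasmic reticulum, against 0.13% of genes. These shares describe letters in a window, not binding. Among partners named below, Ahsa1, Chordc1, Stip1 and Dnajb1 held no heat shock element in this window, while Fkbp4 and Dnaja1 held the 2-part element. Pdia4 and Sdf2l1 held no stress element, while Creld2 did.

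The values are the authors' read counts per gene, scaled to a common upper quartile and rounded, and here called scaled counts. Totals of the listed genes ran from 24637163 to 26859435 scaled counts per library, and the depth of each library before scaling is unknown. The sensory neuron markers Tubb3, Prph, Uchl1, Snap25 and Rbfox3 were present in every library, with a summed level of 208610 to 302138 in TyJ and 210381 to 276922 in RwwJ. BXD36, BXD40 and BXD21 lay apart from the rest on the first principal component of all genes, which held 14.9% of the variance, with scores of 47.8, 54.0 and 45.1 against at most 25.6 in the other libraries. The test between groups, the counts of members called with 6 anchors and the named pairs were also run without them; the counts with 67 anchors were not. In RNA of a whole ganglion, fewer cells of a type and less RNA per cell cannot be told apart.

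The cytosolic Hsp90 and Hsp70 genes were the most abundant members per length of exon. Hsp90ab1, the constitutive Hsp90, had 20015 ± 2677 (SD over 25 strains) scaled counts per kb of exon and its partly heat-inducible relative Hsp90aa1 had 7741 ± 826. The constitutive Hsp70 gene Hspa8 followed with 7215 ± 1074, and Hspa12a, a divergent Hsp70 relative of the brain, was second in that role with 1519 ± 184. The heat-inducible Hsp70 genes Hspa1a and Hspa1b had only 69.4 ± 19.1 and 54.98 ± 13.8 per kb. These last 2 are near-identical copies, so reads could be split between them or lost in the authors' counting.

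Small heat shock proteins came next. Hspb8 had 5261 ± 804 scaled counts per kb and Hspb1 had 3775 ± 469, above every member of the endoplasmic reticulum and of mitochondria. In the endoplasmic reticulum Hsp90b1 (Grp94) had 1991 ± 230 and Hspa5 (BiP), the Hsp70 of that compartment, had 1905 ± 236, a difference within the SD of either. In mitochondria Hspe1 had 2019 ± 532 and Hspd1 had 1579 ± 138. Among DnaJ genes Dnaja2 led the cytosolic ones with 1388 ± 148 and Dnaja1 was second with 920 ± 79.5. Dnajc5, the cysteine string protein of synaptic vesicles, had 987 ± 92.0 and Dnajc6 (auxilin), which uncoats clathrin vesicles, had 921 ± 108. Dnajc7 with 944 ± 53.4 and the splicing-associated Dnajc8 with 900 ± 114 led the remaining DnaJC genes, and Hspbp1 with 1437 ± 195 exceeded Hspbap1 with 27.5 ± 1.82.

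**Figure D1:**
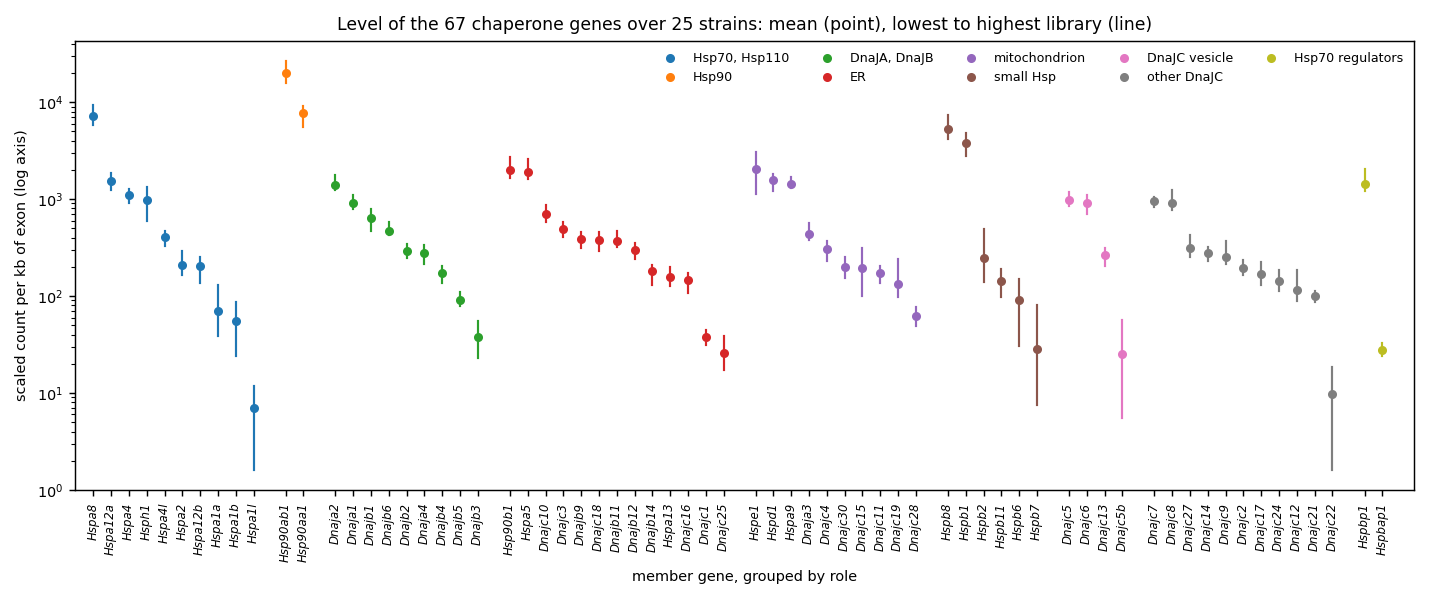
Level of each of the 67 members in scaled counts per kb of exon on a log axis, grouped by role; points are means over 25 strain libraries and lines run from the lowest to the highest library. Hsp90ab1 (20015), Hsp90aa1 (7741), Hspa8 (7215), Hspb8 (5261) and Hspb1 (3775) stand at the top, and the lines of Hspa1l, Dnajc22, Dnajc5b, Hspb6 and Hspb7 are the longest.

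Most members were steady between strains. The median SD of the log2 level was 0.17 over the 67 members and 0.25 over all 16152 genes, but the members were also more abundant, with a median level of 1280.0 scaled counts against 530.0 for all genes. The 90th percentile was at least 2 times the 10th in 6 of 67 members (8.96%) and in 23.9% of all genes. The 5 steadiest members were Dnajc7 with an SD of 0.08, Hspbap1 with 0.09, Dnajc21, a ribosome assembly factor, with 0.10, the mitochondrial Hsp70 Hspa9 with 0.11 and Dnajb12 of the endoplasmic reticulum with 0.11. Dnajc7 ran only from 4033 to 5071 scaled counts, with a median of 4527.

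The 10 most variable members were mostly scarce genes. Hspb7, a small heat shock protein of heart and skeletal muscle, had a log2 SD of 0.85 and ran from 21 to 223 scaled counts with a median of 69. Dnajc5b, a relative of the cysteine string protein, had 0.84 and ran from 7 to 71 with a median of 27. Dnajc22 (0.73), the testis-enriched Hsp70 gene Hspa1l (0.66) and Hspb6 (0.63), the small heat shock protein of smooth and striated muscle, followed. Hspb2 (0.43), Dnajc15 (0.43), Hspa1b (0.39), Hspe1 (0.38) and Hspa1a (0.37) completed the list.

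A gap of at least 0.3 on the log2 scale, with at least 5 libraries on each side, split 2 of 67 members against 7.58% of all genes. These were Hspa1l, with a gap of 0.35 and values from 4 to 29 with a median of 18, and Dnajc22, with a gap of 0.32 and values from 3 to 34 with a median of 17. The gap lay between 10 and 13 scaled counts for Hspa1l and between 11 and 14 for Dnajc22, so each spanned only a few whole numbers. If a scaled count were 1 read, counting alone would give an SD of 0.35 for Hspa1l and 0.34 for Dnajc22. No abundant member lay at 2 separate levels by this rule.

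No member passed the test between RwwJ and TyJ strains. The limma test of log2(scaled count + 1), adjusted by Benjamini-Hochberg over all genes, called 0 of 67 members and 0 of 16152 genes (0%), and the smallest adjusted p of a member was 0.29. At an unadjusted p under 0.05 there were 13 members, 19.4%, beside 15.1% of all genes. Of these 7 were higher in RwwJ, beside 6.19% of all genes, and 6 lower, beside 8.92%. The sample names give no pairing or date, and the p-values measure the spread between strains.

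The 5 members of smallest p on the lower side were Dnajc17, Hspb11, Dnajc12, Dnajc24 and Hspe1, given here as values since none passed. Dnajc17, a splicing-linked DnaJ protein, ranged over 192, 230 and 292 scaled counts (lowest, median, highest) in 16 TyJ libraries and 169, 192 and 214 in 9 RwwJ libraries. The log2 difference of RwwJ minus TyJ was -0.26 (SE 0.08, limma adjusted p = 0.29), with the ranges overlapping between 192 and 214. Hspb11, a subunit of the cilium transport machinery despite its name, ranged over 210, 316 and 395 in TyJ and 201, 254 and 307 in RwwJ, a difference of -0.30 (SE 0.11, limma adjusted p = 0.29). Hspe1 ranged over 1674, 3117 and 4530 in TyJ and 2155, 2567 and 2990 in RwwJ, a difference of -0.30 (SE 0.14, limma adjusted p = 0.32), so that every RwwJ library lay inside the TyJ range. Dnajc12 (-0.22) and Dnajc24 (-0.19) were the other two.

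On the higher side stood Dnajc13, an endosome protein, with a log2 difference of 0.17 (SE 0.07), Dnajb14 of the endoplasmic reticulum with 0.17 (SE 0.08), Dnajc18 with 0.16, Dnajc27 with 0.15 and Dnajc11 with 0.13. Dnajc13 ranged over 2422, 3046 and 3703 scaled counts in TyJ and 2821, 3378 and 3675 in RwwJ, again with every RwwJ library inside the TyJ range. In each direction the differences kept their sign when any 1 library was left out.

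Co-variation over the strains was tested by fitting every other gene on the log2 level of an anchor gene with limma. Correlations are over 25 libraries, each a different strain. As planned, 6 anchors were used and p-values were adjusted over all genes and the 6 anchors together, 96906 tests. After the data had been seen, all 67 members were used as anchors in turn, with adjustment over 1082117 tests. Adjusted p-values below are from the fit with 67 anchors unless said otherwise, and they are two-sided. For the 50 pairs chosen for description the permutation p of Pearson's r (100000 permutations, two-sided) was at most 0.023 and that of Spearman's rho at most 0.012. The smallest these permutations can give is 1e-05. All 50 pairs kept their sign without the 2 libraries farthest from the median of the anchor and within the 16 TyJ libraries, and 47 of 50 kept it within the 9 RwwJ libraries.

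With 67 anchors the fit called 379 of 2211 pairs of members (17.1%), 216 positive and 163 negative, and 14.8% of all 1082117 pairs of a gene with a member, 7.5% positive and 7.25% negative. The rules differ: a pair of members counted only if called with each of its genes as the anchor. The share of all pairs counts every fit by itself. The median r over member pairs was 0.03, against 0.00 over all 130435476 pairs of genes. The median size of r was 0.26 against 0.23, and 5.16% of member pairs had a size of at least 0.7 against 2.82% of all pairs. Sharing a compartment changed the median little, from 0.03 between roles to 0.06 within them. Small heat shock proteins had the highest within-role median, 0.34 over 15 pairs, apart from roles with fewer pairs, and the cytosolic Hsp70 and Hsp110 genes had -0.03 over 45.

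**Figure D2:**
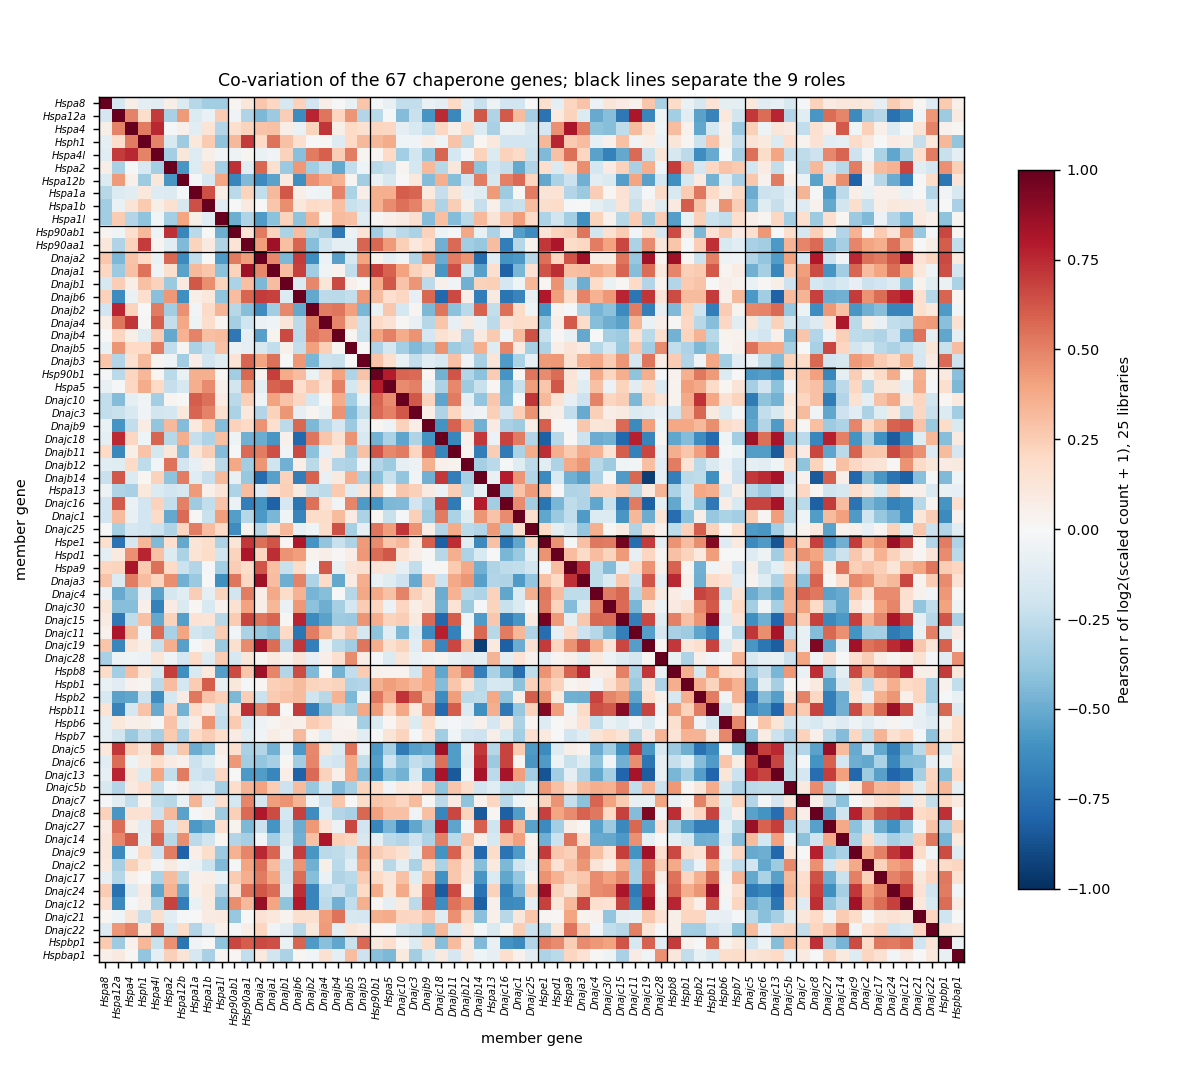
Pearson r of the log2 levels for each pair of the 67 members over 25 libraries, ordered by role and, within a role, by level per kb; black lines separate the roles. Blocks along the diagonal are not uniformly red: the within-role median r was 0.06, and strong positive and negative pairs run across roles.

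Chaperone genes of different compartments and genes of Hsp90 partners varied together around Hspd1. Hspd1 ranged over 3210, 4233 and 4821 scaled counts in TyJ and 3728, 4141 and 4422 in RwwJ, with BXD5 lowest and BXD1 highest of all. Its closest genes in the whole table were Ahsa1, which speeds up the ATPase of Hsp90, Fkbp4, an Hsp90-bound immunophilin, and Chordc1, another Hsp90 partner. Ahsa1 ranged over 3659, 5088 and 5821 in TyJ and 4335, 4825 and 5492 in RwwJ, again with BXD5 lowest. Its r with Hspd1 was 0.89 and its rho 0.86 (limma adjusted p = 7.6e-06, and 0.0026 with 6 anchors). Fkbp4 had r = 0.88 and rho = 0.85 (limma adjusted p = 2.5e-05), and Chordc1 had r = 0.83 and rho = 0.79 (limma adjusted p = 8.3e-05). Without BXD1 and BXD5 these r were 0.82, 0.77 and 0.73, and within RwwJ 0.85, 0.96 and 0.57.

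With 6 anchors, 2 of 66 members were called with Hspd1, both positive, beside 0.0371% of all genes. They were Hsp90aa1 (r = 0.81, rho = 0.72) and Hsph1 (r = 0.76, rho = 0.67), the heat-inducible Hsp110, each at a limma adjusted p of 0.046. This count fell to 0 or 1 when any 1 library other than BXD42 or BXD55 was left out. With 67 anchors 5 members were called positive with Hspd1 beside 2.78% of all genes and 0 negative beside 1.55%. The 3 added were Dnaja1 (r = 0.74, rho = 0.78), the main Hsp70 partner of the cytosol, Hspa5 (r = 0.62, rho = 0.67) and Hsp90b1 of the endoplasmic reticulum. Their calls with Hspd1 held in each of the 25 fits that left out 1 library for the pairs with Hsp90aa1, Hsph1, Dnaja1 and Hspa5. In the libraries, Hsp90aa1 ranged over 22017, 31197 and 36245 in TyJ and 26564, 29602 and 33611 in RwwJ. BXD5 was the lowest library of Hspd1, Hsp90aa1, Hsph1 and Dnaja1 alike. It also had the lowest summed level of 5 sensory neuron markers, 208610, and the highest of 4 smooth muscle and pericyte markers, 16563, and of 3 adipose markers, 3700. The part of these in the pairs was not tested. Without BXD1 and BXD5 the r with Hspd1 were 0.65 for Hsp90aa1, 0.62 for Hsph1 and 0.63 for Dnaja1.

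Hsp90aa1 and Dnaja1 formed the closest of these pairs, with r = 0.85 and rho = 0.90 (limma adjusted p = 0.00011) and r = 0.87 without BXD5 and BXD16. Of the 66 other members 16 were called positive and 6 negative with Dnaja1, beside 11.6% and 9.15% of all genes, and 13 and 2 with Hsp90aa1, beside 9.42% and 6.12%. Hsph1 and Hsp90aa1 depended more on single libraries. Their r of 0.70 (rho = 0.50, limma adjusted p = 0.005) was 0.33 without BXD5 and BXD16, the lowest libraries of both genes, and -0.34 within RwwJ, so it rests on those libraries. Hsph1 itself ran from 4285 in BXD5 and 5414 in BXD16 to 9649 in BXD11, with a median of 7272.

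Of 14 listed heat shock factors and common targets outside the members, 6 were called with Hspd1, 5 with Hsph1 and 7 with Hsp90aa1, all positive, beside 2.78%, 0.669% and 9.42% of all genes. The median r of the list was 0.43 with Hspd1, 0.35 with Hsph1 and 0.49 with Hsp90aa1, where the medians over all genes were 0.00, -0.01 and 0.01. With 6 anchors 3 of 14 were called with Hspd1 and 0 with Hsph1 or Hspa5. With 67 anchors the same list had 5 called with Hspa5 and 5 with Hsp90b1, all positive, beside 1.76% and 5.28% of all genes. Its median r was 0.27 with Hspa5 and 0.33 with Hsp90b1, against 0.03 for all genes with either. Chordc1 had r = 0.74 and rho = 0.76 with Hspa5 (limma adjusted p = 0.0012). Stip1, which links Hsp70 to Hsp90, had r = 0.66 and rho = 0.56 with Hspd1 (limma adjusted p = 0.0063), and 0.52 without BXD5, at an adjusted p of 0.061. With Hsph1 it had r = 0.73 and rho = 0.69, 0.58 without BXD5 and BXD16 (limma adjusted p = 0.0017). The genes of largest r with Hsph1 were, besides Hspd1, Adam19, a membrane protease (r = 0.77, rho = 0.69, limma adjusted p = 0.00025), and Mettl16, an RNA methyltransferase. Mettl16 had r = 0.76 and rho = 0.58, but 0.50 without BXD5, at a limma adjusted p of 0.12.

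Of 8 subunits of the cytosolic chaperonin TRiC, 4 were called with Hspd1 and 5 with Hsp90aa1, all positive, beside 2.78% and 9.42% of all genes called positive with these anchors. Cct5 had r = 0.79 and rho = 0.93 with Hsp90aa1 and Cct7 had r = 0.69 and rho = 0.70 with Hspd1. Against the same shares, 1 of 13 listed co-chaperones, Cdc37, was called with Hspd1 and 5 with Hsp90aa1. Of 10 genes of mitochondrial protein folding, 0 were called with Hspd1, 3 with Hsp90aa1 and 4 with Hspe1, for which 16.9% of all genes were called positive. Of 17 genes of the endoplasmic reticulum stress response, 7 were called with Hspd1, all positive. The median r with Hspd1 was 0.43 for these genes and 0.53 for the TRiC subunits, where the heat shock factor list had 0.43. With Hspe1, 6 of 8 TRiC subunits, 5 of 13 co-chaperones and 6 of these 17 genes were called positive. The only negative calls with Hspe1 in these 3 lists were 2 of the 17, beside 15.8% of all genes.

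**Figure D3:**
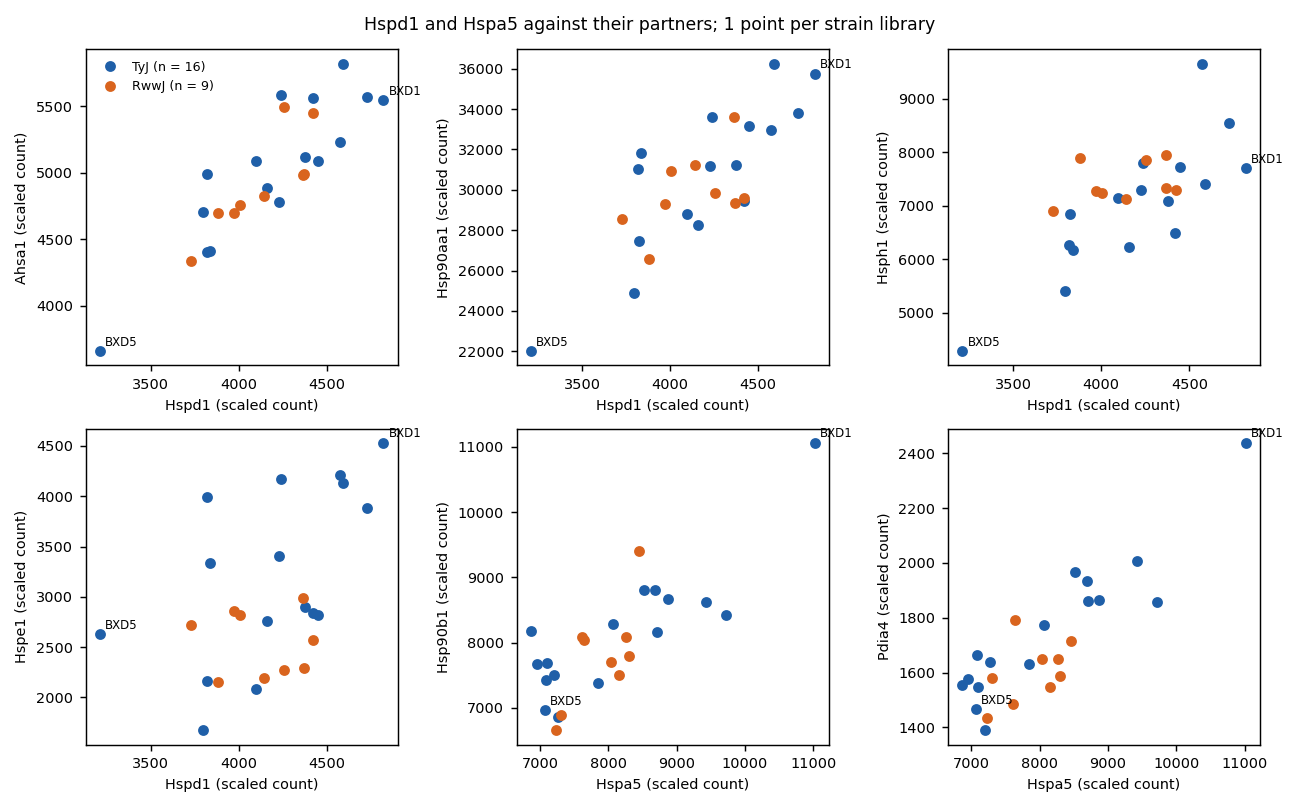
Scaled counts of Hspd1 against Ahsa1, Hsp90aa1, Hsph1 and Hspe1, and of Hspa5 against Hsp90b1 and Pdia4; each point is 1 strain library, blue for 16 TyJ and orange for 9 RwwJ. BXD5 is the lowest point of Hspd1 (3210) and of Ahsa1, Hsp90aa1 and Hsph1, BXD1 is the highest of Hspa5 (11018), Hsp90b1 and Pdia4, and Hspe1 scatters most against Hspd1 (r = 0.45).

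Hsp90b1 and part of the endoplasmic reticulum stress response list varied with Hspa5. Hspa5 ranged over 6864, 7956 and 11018 scaled counts in TyJ and 7227, 8040 and 8453 in RwwJ, and Hsp90b1 over 6862, 8170 and 11058 in TyJ and 6660, 7803 and 9404 in RwwJ. BXD1 was the highest library of both, and the groups overlapped. Their r was 0.79 and their rho 0.71 (limma adjusted p = 0.00034), and r was 0.68 without BXD1 and BXD42 and 0.74 within RwwJ. Hsp90b1 was the 1 member of 66 called with Hspa5 in the fit with 6 anchors (limma adjusted p = 0.046), beside 0.0186% of all genes. That call was kept only when BXD15, BXD42, BXD55 or BXD60 was the library left out.

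With 67 anchors 4 members were called with Hspa5, all positive, beside 1.76% of all genes. They were Hsp90b1, the heat-inducible DnaJ gene Dnajb1 (r = 0.62, rho = 0.64), Hspd1 and Dnaja1. The endoplasmic reticulum DnaJ genes themselves were mostly not among them: 1 of 12 other members of that compartment was called, Hsp90b1, and their median r with Hspa5 was -0.01. With Hsp90b1, 9 of 66 members were called positive and 5 negative, beside 5.28% and 3.67% of all genes. Of the 12 in its compartment 5 were called positive, among them Dnajb11, Dnajc10 and Dnajc3.

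Outside the members, Pdia4, a disulfide isomerase of the endoplasmic reticulum, had the largest r with Hspa5 of all genes, 0.85, with a rho of 0.79 (limma adjusted p = 2.2e-05). It ranged over 1390, 1719 and 2438 scaled counts in TyJ and 1433, 1588 and 1793 in RwwJ, with BXD1 highest. Its r was 0.77 without BXD1 and BXD42 and 0.47 within RwwJ. Of 17 genes listed for the endoplasmic reticulum stress response, 7 were called with Hspa5 and 8 with Hsp90b1, all positive, beside 1.76% and 5.28% of all genes. The median r of the list was 0.47 with Hspa5 and 0.36 with Hsp90b1, against 0.03 for all genes with either. Creld2 had r = 0.72 and rho = 0.53 with Hspa5 (0.47 without BXD1 and BXD42), Sdf2l1, a partner of the endoplasmic reticulum DnaJ proteins, r = 0.68 and rho = 0.58, and Ddit3 (Chop), a transcription factor of prolonged stress, r = 0.66 and rho = 0.68.

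Markers of blood cells moved with these genes. Of 4 erythroid markers, 3 were called positive with each of Hspa5, Hsp90b1, Hsp90aa1 and Hspe1, beside 1.76%, 5.28%, 9.42% and 16.9% of all genes. With Hspa5, Alas2 had r = 0.59 and rho = 0.50, Hba-a1 r = 0.52 and Hbb-bs r = 0.52, and without BXD1 and BXD42 these r were 0.36, 0.29 and 0.23. The summed level of the 4 markers, which was 0 in no library, ran from 5706 to 47170 in TyJ, highest in BXD1, and from 7723 to 21808 in RwwJ. The gene of largest r with Hsp90b1 was Cd79b, a part of the B cell antigen receptor, at a limma adjusted p of 1e-05. Cd79b ranged over 47, 140 and 502 scaled counts in TyJ and 61, 89 and 201 in RwwJ, and its levels split at a gap of 0.35. Within its 16 lower libraries r was 0.47 (rho = 0.52, permutation p = 0.066) and within its 9 upper libraries 0.85 (rho = 0.63, permutation p = 0.02). Isg20, an interferon-induced exonuclease that B cells also express, had r = 0.76 and rho = 0.62 with Hspa5, 0.57 without BXD1 and BXD42 and 0.25 within RwwJ.

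With muscle, spinal cord and erythroid scores as covariates, Hspa5 and Hsp90b1 had a partial r of 0.60 and an adjusted p of 0.052, while Hspa5 with Hspd1 had 0.44 (adjusted p = 0.19) and with Dnajb1 0.46 (adjusted p = 0.14). The counts of members called with Hspa5 and with Hspd1 in the fit with 6 anchors were 0. The limma adjusted p of Hspd1 with Hsp90aa1, Hsph1, Ahsa1, Fkbp4, Chordc1 and Stip1 stayed under 0.05 in the same fit with 67 anchors, and that with Dnaja1 was 0.057.

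Hspa8 co-varied with its neighbours on chromosome 9 rather than with other chaperones. It ranged over 26505, 30137 and 36703 scaled counts in TyJ and 24805, 27886 and 40622 in RwwJ, with BXD77 and BXD60 highest and BXD89 and BXD55 lowest. No member of 66 was called with it in the fit with 6 or with 67 anchors, where 0.118% of all genes were called positive and 0.136% negative. Its median r with the members was -0.02. The gene of largest r was Ubash3b, a phosphatase that lies 2 measured genes away, with r = 0.83 and rho = 0.78 (limma adjusted p = 1.4e-05, and 0.003 with 6 anchors). Ubash3b ranged over 4421, 5002 and 9022 in TyJ and 4239, 5873 and 8846 in RwwJ. Its r with Hspa8 was 0.79 without BXD60 and BXD77, 0.81 within TyJ and 0.90 within RwwJ.

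The next genes by r with Hspa8 also included neighbours. Olfr920, an odorant receptor gene 6 measured genes away, Sc5d, a sterol synthesis enzyme 5 away, and Tecta, 6 away, had ranks 2, 3 and 5 among all genes. Sc5d had r = 0.74 and rho = 0.59 (limma adjusted p = 0.0006) and r = 0.69 without BXD60 and BXD77. No library had an Sc5d level between 2177 and 2539 scaled counts, a gap below the limit of 0.3. The r of Sc5d on each side of that gap was not tested. Olfr920 lay at 2 levels that did not touch, 10 to 20 scaled counts in 15 libraries and 71 to 186 in 10. Within those levels its r with Hspa8 was -0.30 (rho = -0.13, permutation p = 0.27) and 0.20 (rho = 0.15, permutation p = 0.59), and no r over both levels is given.

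Of the 100 measured genes nearest to Hspa8, 5 had an r of at least 0.6 in size (5%), against 0% on the rest of chromosome 9 and 0.0867% of all genes. Of the 41 genes that the fit with 67 anchors called with Hspa8, 8 lay among these 100 and 1 elsewhere on the chromosome. The 5 include Olfr920, whose r within its 2 levels was -0.30 and 0.20, and Jhy, the adjoining gene, whose r was negative (-0.61). The library kit does not keep strand, so reads of overlapping neighbours cannot be told apart, and the strains carry either parent's copy of whole chromosome blocks. The part of either in the result was not tested. Hspa8 also has many pseudogene copies, with which it can share reads.

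Hspb6 showed the same kind of pattern on chromosome 7. It ranged over 70, 201 and 342 scaled counts in TyJ and 135, 243 and 289 in RwwJ, with BXD14 and BXD15 lowest and BXD16 and BXD21 highest. Gpi1, a glycolytic enzyme 30 measured genes away, had r = 0.75 and rho = 0.69 with it (limma adjusted p = 0.00067, and 0.071 with 6 anchors). The r was 0.63 without BXD14 and BXD15 and 0.64 within RwwJ. Nudt19, 44 genes away, lay at 2 levels, 532 to 753 in 9 libraries and 1114 to 1833 in 16, and within them its r with Hspb6 was -0.35 (rho = -0.32, permutation p = 0.37) and 0.12 (rho = 0.12, permutation p = 0.66). Of the 100 nearest measured genes 4 had an r of at least 0.6 in size (4%), against 0% of the rest of the chromosome and 0.0619% of all genes. The 4 include Nudt19, counted by its r over both levels. No member was called with Hspb6 in either fit, where the one with 67 anchors called 0.198% of all genes positive and 0.186% negative. For Hspd1 and Hspa5 the nearest 100 held 1 and 0 genes of that size.

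**Figure D4:**
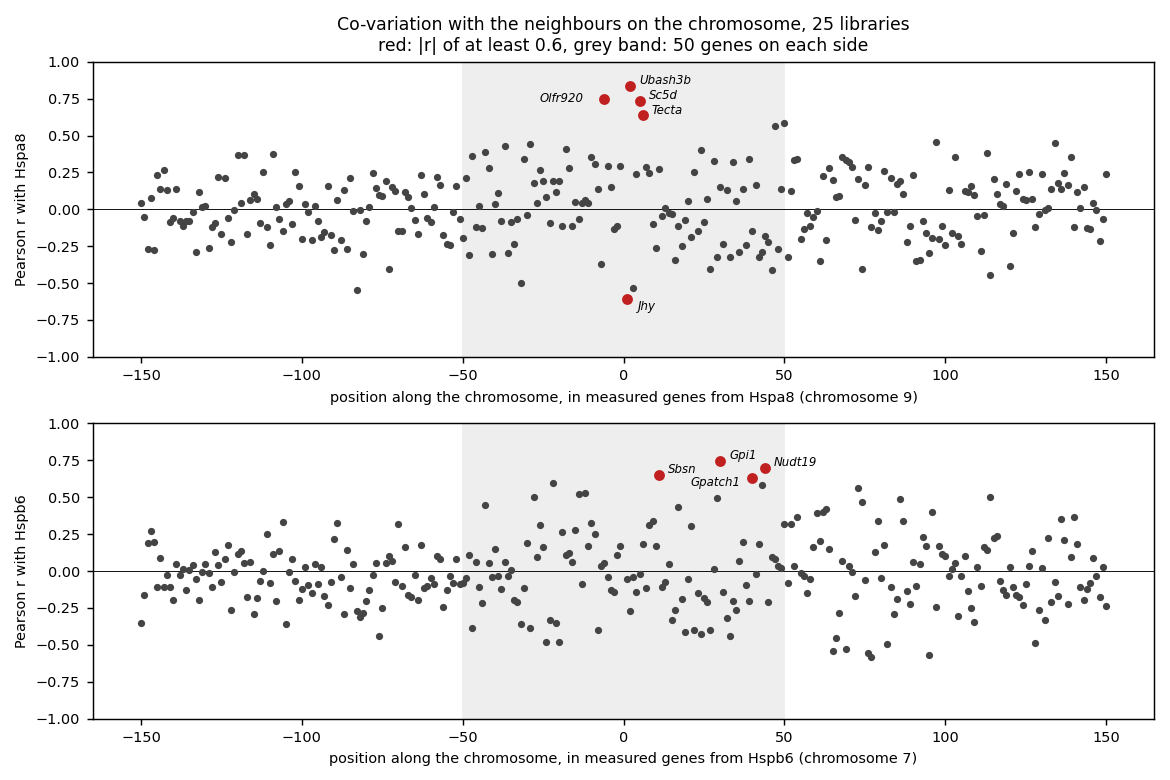
Pearson r over 25 libraries of Hspa8 (chromosome 9, top) and Hspb6 (chromosome 7, bottom) with the measured genes on each side, by position counted in genes. Red points have an r of at least 0.6 in size: 5 of the 100 nearest genes for Hspa8 (Ubash3b, Olfr920, Sc5d, Tecta and Jhy) and 4 for Hspb6 (Gpi1, Nudt19, Sbsn and Gpatch1), and none elsewhere on either chromosome.

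Hspb7 followed skeletal muscle genes. All 6 skeletal muscle markers were called positive with Hspb7, beside 1.08% of all genes, and 0 of 6 with Hspb6, beside 0.198%; the difference between them was not tested. The median r of the list with Hspb7 was 0.81. Hspb7 ranged over 21, 71 and 223 scaled counts in TyJ and 21, 67 and 144 in RwwJ, and was highest in BXD16 and BXD5 and lowest in BXD13 and BXD73. Its closest genes were Myot, a sarcomere protein, and Des, the intermediate filament of muscle, at limma adjusted p of 7.8e-07 and 8.4e-07. Both lay at 2 levels, so r is given within each. Within the 18 libraries of lower Myot r was 0.83 (rho = 0.69, permutation p = 5e-05), and within the 7 of higher Myot 0.85 (rho = 0.93, permutation p = 0.01). For Des r was 0.64 (rho = 0.74, permutation p = 0.13) in its 7 lower libraries and 0.79 (rho = 0.72, permutation p = 9e-05) in its 18 upper ones. Acta1, skeletal muscle actin, had 0.91 in its 11 lower libraries (rho = 0.89, permutation p = 0.00024) and 0.62 in its 14 upper ones (rho = 0.54, permutation p = 0.018). It ran from 76 scaled counts in BXD68 to 8131 in BXD60. The summed level of the 6 markers, none at 0 in any library, ran from 448 to 24929 in TyJ and from 298 to 39063 in RwwJ. Dorsal root ganglia hold no skeletal muscle, and the part of adjoining tissue in the Hspb7 level was not tested.

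Hspb6 and Hspb7 had r = 0.48 and rho = 0.59 with each other (limma adjusted p = 0.063), which was 0.68 within TyJ and -0.09 within RwwJ. Leaving out BXD13, BXD68 or BXD73 brought the adjusted p under 0.05, with r of 0.54 to 0.58. Hspb2 followed Cryab, with r = 0.81 and rho = 0.82 (limma adjusted p = 3.8e-05). These small heat shock protein genes lie side by side on chromosome 9, so that reads between them may be shared. Hspb2 ranged over 144, 207 and 412 scaled counts in TyJ and 117, 154 and 313 in RwwJ. All 3 endothelial markers, 3 of 5 Schwann cell markers, 2 of 3 macrophage markers, 3 of 4 smooth muscle and pericyte markers and 3 of 4 fibroblast markers were called positive with Hspb2, beside 10.5% of all genes, and 2 of 5 sensory neuron markers were called negative, beside 5.93%.

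Hspb8 and Hspb1 are the small heat shock proteins linked to neuropathy. Hspb8 ranged over 8410, 9900 and 14505 scaled counts in TyJ and 8160, 9719 and 10547 in RwwJ, with BXD21 and BXD36 highest. It had r = 0.69 and rho = 0.52 with Bag3, the co-chaperone that binds it (limma adjusted p = 0.0025), and r = 0.84 and rho = 0.54 with Dnaja2 (limma adjusted p = 3.7e-05). Without BXD21, BXD36 and BXD40 these fell to 0.41 and 0.27, at limma adjusted p of 0.24 and 0.60. Within the 9 RwwJ libraries, which include none of those 3, r was 0.80 with Bag3 and 0.29 with Dnaja2.

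Hspb1 ranged over 3443, 3818 and 5002 scaled counts in TyJ and 2879, 3666 and 4240 in RwwJ, highest in BXD1 and BXD5 and lowest in BXD48. With 6 anchors it had 0 called members and 0 called genes (0%). With 67 anchors it had 1 positive member, Hspa1b (r = 0.60, rho = 0.62, limma adjusted p = 0.013), and 1 negative, Dnajc27, beside 0.464% and 1.16% of all genes. The r with Hspa1b was 0.64 without BXD1 and BXD5, 0.66 within TyJ and 0.52 within RwwJ. Its closest genes were the antisense gene Kcnmb4os2 (r = 0.78, rho = 0.70), listed at 15 to 46 scaled counts, Nxnl2 (r = 0.71, rho = 0.65) and Usf2, a transcription factor (r = 0.69, rho = 0.52). The r with Usf2 was 0.46 without BXD1 and BXD5 and 0.05 within RwwJ. Of 3 adipose markers 2 were called positive with Hspb1. These were Adipoq (r = 0.58, rho = 0.44) and Cfd (r = 0.52, rho = 0.34), and without BXD1 and BXD5 their r were 0.35 and 0.25.

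The inducible Hsp70 genes were scarce, and Hspa1a moved with Dnajb1. Hspa1a ranged over 115, 205 and 382 scaled counts in TyJ and 136, 183 and 298 in RwwJ, and Hspa1b over 68, 153 and 241 and over 98, 151 and 181. Their r was 0.64 and their rho 0.56 (limma adjusted p = 0.0062), though 0.53 without BXD6, the lowest library of both, at an adjusted p of 0.051. Near-identical sequence means that this pair is not independent. Hspa1a with Dnajb1, which starts the inducible Hsp70 cycle, had r = 0.62 and rho = 0.63 (limma adjusted p = 0.0091), and 0.52 without BXD2 and BXD6. Of 66 members, 5 were called positive and 1 negative with Hspa1a, beside 1.13% and 0.402% of all genes.

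Hspa4 and Hspa4l, relatives of Hsp110, varied together and with mitochondrial Hspa9. Hspa4 with Hspa4l had r = 0.76 and rho = 0.70 (limma adjusted p = 0.0013) and 0.77 without BXD5 and BXD48. Hspa4 with Hspa9 had r = 0.82 and rho = 0.79 (limma adjusted p = 0.00045) and 0.93 within RwwJ. Hspa4 ran from 5073 in BXD5 to 7002 in BXD21 with a median of 6097, and Hspa9 from 5542 in BXD5 to 7212 in BXD21 with a median of 6224. Dnajc14 with Dnaja4 was another close pair, r = 0.81 and rho = 0.79 (limma adjusted p = 0.00011) and r = 0.87 without BXD1 and BXD9.

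Hspe1, the partner of Hspd1 in the mitochondrial chamber, did not follow it closely. The 2 genes share the promoter region shown above, yet their r was 0.45 and their rho 0.50 (limma adjusted p = 0.087), and r was 0.43 without BXD1 and BXD5, 0.53 within TyJ and -0.07 within RwwJ. The adjusted p fell under 0.05 without BXD5 (r = 0.51) or without BXD15 (r = 0.53). Hspe1 has pseudogene copies that could take or lend reads. It spread more than Hspd1, with a log2 SD of 0.38 against 0.13.

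Hspe1 instead followed a large set of genes whose median exon length was short. Dnajc15, a mitochondrial import protein, had r = 0.96 and rho = 0.95 with it (limma adjusted p = 4e-10), Hspb11 had r = 0.92 and rho = 0.92, and Erh, a small nuclear protein, r = 0.97 and rho = 0.94. Dnajc15 itself was not short, with 6.51 kb of exon, while Hspb11 had 2.07 kb. Dnajc13 was opposite, with r = -0.87 and rho = -0.83 (limma adjusted p = 6e-06). Of 66 members, 14 were called positive and 10 negative with Hspe1, beside 16.9% and 15.8% of all genes. The 14 had a median exon length of 3.11 kb and the 10 of 6.73 kb, where all members had 4.03 kb. The same held over the table: 2728 genes called positive had a median of 2.57 kb, 2547 called negative had 7.17 kb and all genes 4.30 kb. The highest libraries of Dnajc15 were BXD40 and BXD36, and of Hspe1 BXD1 and BXD11. Markers of some other cell types also moved with Hspe1: 3 of 3 macrophage, 3 of 4 erythroid and 2 of 4 fibroblast markers were called positive, with median r of 0.70, 0.57 and 0.50. So were 1 of 3 endothelial, 1 of 3 adipose, 1 of 4 satellite glia and 1 of 5 sensory neuron markers. Of Schwann cell, smooth muscle and pericyte, skeletal muscle and spinal cord markers 0 were called. The part of these cell types in the Hspe1 pairs was not tested.

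Dnajc19, another import protein, ran the same way with r = 0.93 and rho = 0.86 to Dnajc8 (limma adjusted p = 7.5e-08) and r = -0.94 and rho = -0.80 to Dnajb14 (limma adjusted p = 2.2e-08). Dnajc19 ranged over 420, 506 and 977 scaled counts in TyJ and 390, 466 and 595 in RwwJ, and Dnajb14 over 2037, 2690 and 3222 and over 2526, 3135 and 3264. BXD40 and BXD36 were the highest of Dnajc19 and the lowest of Dnajb14, and without them the r were 0.90 and -0.90. With the first principal component as a covariate, Hspe1 and Dnajc13 had a partial r of -0.56 and an adjusted p of 0.087.

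**Figure D5:**
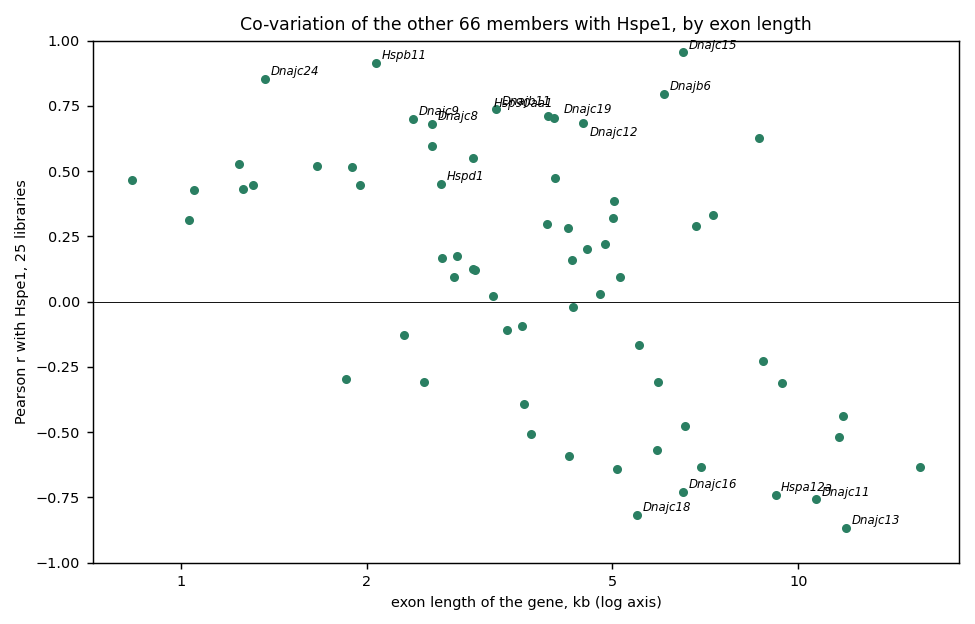
Pearson r with Hspe1 over 25 libraries for the other 66 members against the exon length of each gene in kb on a log axis; each point is 1 gene. Members called positive had a median of 3.11 kb and members called negative 6.73 kb. Dnajc15 (r = 0.96, at 6.51 kb) and Dnajc13 (r = -0.87) mark the ends of r, and Hspd1 lies at 0.45.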

How the data were processed

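Total RNA came from a Trizol extraction and went into Illumina TruSeq v2 libraries, per the labels' protocols. The tools CASAVA 1.8.0, TopHat2 2.0.9 and HTSeq and the builds NCBIM37 and mm9 are named per the submitters' processing notes. The authors deposited a score: read counts per Ensembl gene, scaled and rounded, with the third quartile at 1478 in all 25 libraries. The scaling tool is not given in the sources used here. No count model was used for that reason. Levels are log2(scaled count + 1), and genes with a mean of at least 10 were tested with limma 3.58.1 in R 4.3.3 (trended prior, two-sided, Benjamini-Hochberg at 0.05). Permutations and correlations were run in Python 3.11.15 with numpy 2.4.6. The fits were tested on simulated data. Exon lengths are from GENCODE M21, a later build than the deposited table, and 15642 of 16152 genes had one.

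The members, lists, anchors and tests were chosen with earlier results of these data known. Named genes were the 5 of smallest p in each direction between groups, the 6 anchors, the called members and 3 genes of largest r for each, the 10 most and 5 least variable members, members with a gap, the 2 of highest level per length in each role, and the 3 called genes of largest r of each list. Other pairs with Hspe1, Hspb7, Hspb8, Hspb2, Hspa1a, Hspa4, Dnajc14, Dnajc19, Hsp90aa1 and Hsp90b1 were chosen after their values were seen. Alternatives were another pseudocount, filter, scaling and rank scale, group, tissue scores or the first principal component as covariates, each group alone, and each library left out. The precision of a level cannot be given from depth, which is unknown before scaling.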

Additional observations from a re-analysis of the deposited data

Results flagged for a closer look

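Among the 9 RwwJ libraries, 4 of 67 members had a library far from the other eight by Dixon's test, which flags about 1 in 20 groups by chance. That is 5.97% of the members, and the same test singled out a library in 7.3% of all 16152 genes, so the number is no result about the members. Dnajc6 was lowest in BXD55 at 4258 scaled counts, with BXD87 next at 5494. Dnajc19 was highest in BXD55 at 595, with BXD77 next at 482. Dnajc12, a partner of the aromatic amino acid hydroxylases, was highest in BXD48 at 532, with BXD55 next at 460. Hspb1 was lowest in BXD48 at 2879, with BXD55 next at 3515. The TyJ group has 16 libraries and was not tested this way.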

How the results depend on the processing

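The count of 0 members called between RwwJ and TyJ was the same under each alternative run. The counts of members called in the fit with 6 anchors, 1 with Hspa5 and 2 with Hspd1, were not stable. Both were 0 with libraries scaled to the same total, with tissue scores as covariates, without BXD21, BXD36 and BXD40, on ranks, and in TyJ or RwwJ alone. Hspa5 had 0 and Hspd1 had 1 with group as a covariate and without BXD48. Hspd1 had 1 with a pseudocount of 10 and with the first principal component as a covariate. Leaving out 1 library gave 0 to 1 for Hspa5 and 0 to 2 for Hspd1. The counts for Hsph1, Hspa8, Hspb1 and Hspb6 were 0 throughout. The 2 members with a gap became 0 with a pseudocount of 10 and 1 with libraries scaled to the same total, and 1 to 3 when 1 library was left out. Within RwwJ alone r reversed to -0.073 for Hspd1 with Hspe1, -0.34 for Hsph1 with Hsp90aa1 and -0.091 for Hspb6 with Hspb7. The cause was not tested. The anchor fits without BXD21, BXD36 and BXD40, in RwwJ alone and with the first principal component were added after the data had been seen. No paired analysis was possible because each strain is 1 library with its own strain number. Depth before scaling is unknown, so low members such as Hspa1l and Dnajc22 are the least certain.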
